A study of Mus musculus with 6 samples.

Results

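Hemoglobin and erythroid genes were followed in the transcriptome of native cardiac fibroblasts (CFs). They were 7 genes, Hbb-bs, Hbb-bt, Hba-a1, Hba-a2, Alas2, Slc4a1 and Bpgm, taken by symbol from the 49548 genes of the count table, and all 7 passed the filter of at least 10 counts in at least 2 libraries. Poly(A) RNA was sequenced from 3 samples of wild type (WT) and 3 of CharmeKO native CFs, from C57BL/6J mice at the age of 5 weeks. In CharmeKO mice a polyadenylation signal in the Charme locus cuts short the transcription of Charme, a long non-coding RNA of striated muscle, and this whole-body allele is carried by every cell of the heart. In both groups the hearts were dissociated with enzymes, red blood cells were lysed and cells of hematopoietic lineages were depleted with antibody-coupled magnetic beads, so erythroid transcripts in these libraries are those that remained after both steps. The labels also describe growth on fibronectin in serum-containing medium, which differs from the account of freshly isolated cells. The labels do not say which animal each sample came from.

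Hemoglobin is the oxygen carrier of red cells, a tetramer of alpha and beta globin chains, each holding a heme. Heme is made in erythroid cells from a pathway that starts with the enzyme ALAS2 in the mitochondrion. The last nucleated precursor expels its nucleus and becomes a reticulocyte, which still holds messenger RNA, most of it globin, and loses it as it matures. In the adult mouse, Hbb-bs and Hbb-bt encode beta globin and Hba-a1 and Hba-a2 encode alpha globin. Slc4a1 encodes band 3, the anion exchanger that carries bicarbonate and anchors the membrane skeleton, and Bpgm encodes the enzyme that makes 2,3-bisphosphoglycerate, the ligand that lowers the oxygen affinity of hemoglobin.

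The stretches just before the transcription starts are shown because red cells use all 7 genes. They are the 250 bases upstream of the start, 5′ to 3′ on the gene's strand, from RefSeq on GRCm38.p6, in which 6 of the 7 genes were matched. Capitals mark 4 short motifs, namely the GATA motif (the letters GATA after an A or T and before an A or G, either strand), CACCC (either strand), CCAAT (either strand) and a TATA motif (the letters TATAA before an A or G, sense strand only), and the motifs do not share letters with one another. The stretch of Hbb-bs lies at chr7:103827929-103828178 on the minus strand, that of Hbb-bt at chr7:103813924-103814173 on the minus strand, that of Hba-a1 at chr11:32283422-32283671 on the plus strand, that of Alas2 at chrX:150547167-150547416 on the plus strand and that of Bpgm at chr6:34476106-34476355 on the plus strand.
Hbb-bs: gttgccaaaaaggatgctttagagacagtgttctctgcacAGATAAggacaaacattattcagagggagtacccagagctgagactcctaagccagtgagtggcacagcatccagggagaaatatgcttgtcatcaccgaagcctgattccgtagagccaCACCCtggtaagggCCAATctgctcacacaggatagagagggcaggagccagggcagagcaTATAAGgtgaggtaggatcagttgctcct
Hbb-bt: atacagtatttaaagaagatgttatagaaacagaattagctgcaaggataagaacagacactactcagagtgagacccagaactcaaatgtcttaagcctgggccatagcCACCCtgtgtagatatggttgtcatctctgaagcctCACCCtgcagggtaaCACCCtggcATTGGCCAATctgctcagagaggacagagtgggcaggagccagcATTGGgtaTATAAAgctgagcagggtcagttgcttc
Hba-a1: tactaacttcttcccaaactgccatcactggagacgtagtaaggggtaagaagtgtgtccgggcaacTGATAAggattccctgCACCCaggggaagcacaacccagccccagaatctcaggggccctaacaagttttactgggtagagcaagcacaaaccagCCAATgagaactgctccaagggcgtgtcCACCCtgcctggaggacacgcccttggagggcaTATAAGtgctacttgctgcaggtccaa
Alas2: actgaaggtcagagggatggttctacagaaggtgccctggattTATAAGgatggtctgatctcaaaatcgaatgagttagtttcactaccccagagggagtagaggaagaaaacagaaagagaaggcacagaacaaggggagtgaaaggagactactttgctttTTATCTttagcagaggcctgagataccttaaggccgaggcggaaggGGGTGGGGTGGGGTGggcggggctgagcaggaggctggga
Bpgm: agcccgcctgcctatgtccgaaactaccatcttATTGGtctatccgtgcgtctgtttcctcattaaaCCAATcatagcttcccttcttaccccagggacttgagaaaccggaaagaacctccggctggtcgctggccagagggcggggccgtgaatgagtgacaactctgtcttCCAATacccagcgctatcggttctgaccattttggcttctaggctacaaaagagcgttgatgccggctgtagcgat

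Hbb-bs held 1 GATA motif, 1 CACCC, 1 CCAAT and 1 TATA motif, in that order towards the start. Hbb-bt held no GATA motif but 3 CACCC, 3 CCAAT, of which an adjoining pair faces opposite ways, and 1 TATA motif. Hba-a1 held 1 GATA motif, 2 CACCC, 1 CCAAT and 1 TATA motif, and Alas2 held 1 GATA motif, 3 adjoining CACCC on the opposite strand, no CCAAT and 1 TATA motif far from the start. Bpgm, an enzyme gene that is also used outside the red cell lineage, held 3 CCAAT and none of the other motifs. Among 32851 promoters in windows of the same length, 26.5% held the GATA motif, 52.0% CACCC, 33.8% CCAAT and 11.2% the TATA motif. A match here is a match of letters and does not show binding.

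The copies of each globin were nearly alike. The coding sequences of Hba-a1 and Hba-a2 had 426 bases without the stop codon and differed at 1, C381T, written as the base of Hba-a1, the position from the A of the ATG as 1, and the base of Hba-a2. Hbb-bs and Hbb-bt had 441 coding bases and differed at 1, C417T, in the same notation with Hbb-bs first. Upstream of the start the pairs differed from each other in kind, since Hba-a1 and Hba-a2 had 0 differences over 247 aligned bases and Hbb-bs and Hbb-bt had 65 differences over 243 aligned bases, an identity of 73.3%. Of all stretches of 75 bases in the main transcript, 62.2% of those of Hba-a1 were also in Hba-a2, 81.0% of those of Hba-a2 were also in Hba-a1, 64.3% of those of Hbb-bs were also in Hbb-bt and 56.6% of those of Hbb-bt were also in Hbb-bs. STAR's gene counts take only reads with 1 best place in the genome, so a read within a shared stretch adds to neither copy, and levels of the single copies, their sum and the ratio of a pair are uncertain to that extent.

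Total counts ranged from 9595701 to 42101393 in WT and from 23550718 to 31048606 in CharmeKO, and the shallowest library was WT replicate 3. Levels are given as CPM, the count scaled to a fixed library total. The limit of detection, taken as 3 counts in a library, lay between 0.0705 and 0.323 CPM and covers counting error only. Charme itself had 26, 15 and 4 counts in WT replicates 1, 2 and 3 and 7, 0 and 0 counts in the CharmeKO replicates. That is 0.611, 0.571 and 0.430 CPM in WT and 0.245, 0 and 0 CPM in CharmeKO. Its log2 fold change of CharmeKO against WT was -2.66 (unadjusted p = 0.0388, adjusted p = 0.362 in edgeR's quasi-likelihood test). Its counts were low in both groups, so it is a weak check of the labels. Fibroblast markers were abundant, with a summed level of 42191 to 44639 CPM in WT and 34693 to 43100 CPM in CharmeKO over 12 genes. Across all 15789 genes tested, 131, or 0.83%, passed an adjusted p of 0.05 in edgeR's quasi-likelihood test, 65 lower (0.412%) and 66 higher (0.418%) in CharmeKO.

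Hemoglobin transcripts were among the most abundant RNAs in these libraries of native CFs, and which cells held them was not tested. The 4 hemoglobin genes took 2.63%, 2.85% and 3.67% of all counts in WT replicates 1, 2 and 3 and 2.64%, 3.18% and 2.31% in the CharmeKO replicates, with exact 95% binomial intervals at most 0.0238 percentage points wide that cover counting error only. Their summed level was 26021, 30240 and 37903 CPM in WT and 24828, 30648 and 23566 CPM in CharmeKO. The groups overlapped, with WT replicate 3 the highest library and CharmeKO replicate 3 the lowest. WT libraries averaged 31388 ± 6024 CPM and CharmeKO libraries 26347 ± 3777 CPM (SD, n = 3 each), a difference of -0.24 on the log2 scale with p = 0.3 in a two-sided exact permutation test, in which 3 against 3 libraries cannot go below 0.1. The difference was -0.0999 without WT replicate 3 and -0.37 without WT replicate 1. In bulk samples, fewer red cells and less RNA per red cell cannot be told apart.

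Levels of the 7 genes relative to each other can be read only per length of transcript. Per kilobase of exon, the mean level over the 6 libraries was 19880 CPM for Hbb-bs, the second highest of all genes tested, 10045 CPM for Hba-a1, 4600 CPM for Hba-a2, 3378 CPM for Hbb-bt, 401 CPM for Alas2, 59.9 CPM for Bpgm and 3.29 CPM for Slc4a1. This order held in each of the 6 libraries. Exon length includes stretches shared by copies, from which reads add to neither copy. At 75 bases, 62.2% of the stretches of Hba-a1 were shared with Hba-a2 and 81.0% the other way. The gap between the alpha copies and the order of Hba-a2 and Hbb-bt are therefore not shown to be differences in expression. The ranges over libraries of neighbours in the order were apart except for Hba-a2, at 3353 to 6983 CPM per kilobase, and Hbb-bt, at 2677 to 4503. The distance from the highest to the lowest is thus several orders of magnitude, with the 4 globin genes on top and the band 3 gene far below the heme enzyme.

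Of the beta globin genes, Hbb-bs had 14201, 15265 and 18480 CPM in the WT replicates and 13453, 17750 and 12460 CPM in the CharmeKO replicates. The groups overlapped, since CharmeKO replicate 2 lay above a pair of WT libraries. Hbb-bt, the less abundant beta copy, had 2037, 2298 and 3166 CPM in WT and 1882, 2884 and 1982 CPM in CharmeKO, and overlapped in the same way. The log2 fold change of CharmeKO against WT was -0.13 for Hbb-bs (95% interval -0.52 to 0.25, adjusted p = 0.809 in edgeR's quasi-likelihood test) and -0.15 for Hbb-bt (-0.60 to 0.30, adjusted p = 0.814). Neither passed the test, and both intervals include 0.

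Of the alpha globin genes, Hba-a1 had 7546, 9160 and 11600 CPM in WT and 6878, 7195 and 6557 CPM in CharmeKO. All 3 CharmeKO libraries lay below all 3 WT libraries, as was the case for 8.59% of all genes tested in this direction. The log2 fold change of -0.46 (SE 0.17, 95% interval -0.83 to -0.083) had an unadjusted p of 0.0209 and did not pass after adjustment over all genes, with an adjusted p of 0.293 in edgeR's quasi-likelihood test and 0.0806 to 0.694 over the 13 alternatives run. Hba-a2, its copy, had 2236, 3517 and 4657 CPM in WT and 2615, 2818 and 2566 CPM in CharmeKO. The groups overlapped because WT replicate 1 was the lowest of all libraries, and the log2 fold change was -0.38 (95% interval -0.86 to 0.10, adjusted p = 0.505 in edgeR's quasi-likelihood test). Both alpha genes varied little among the CharmeKO libraries, with coefficients of variation of 4.64% for Hba-a1 and 5.02% for Hba-a2, while the WT libraries had 21.6% and 34.9%.

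**Figure D1:**
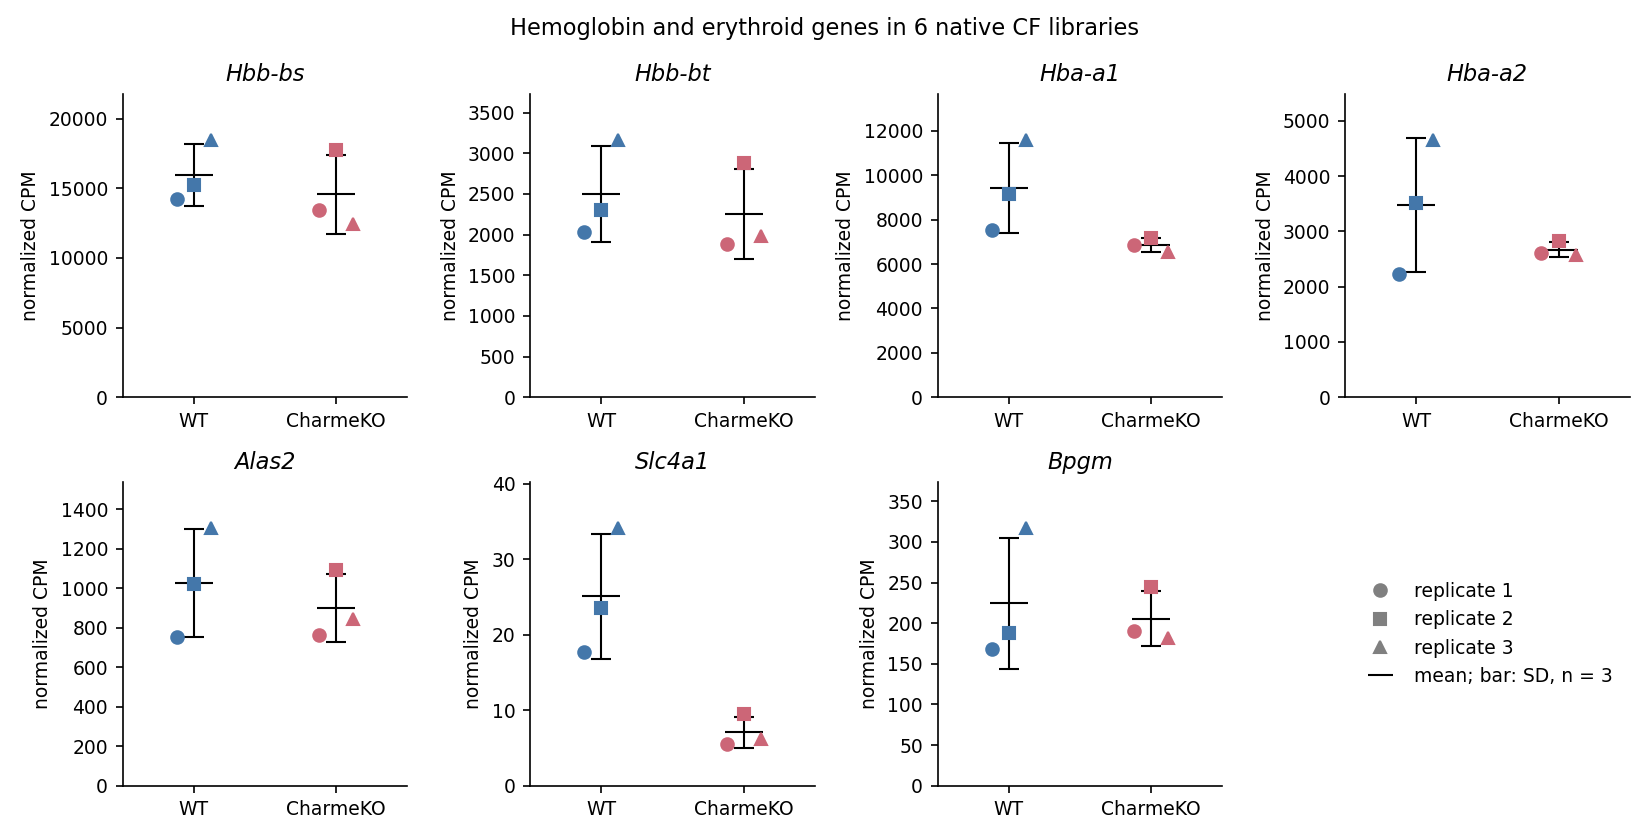
Normalized CPM (vertical axes, each from 0) of the 7 genes in each WT (blue) and CharmeKO (red) library, with the mean and SD of 3 replicates. The groups overlap for Hbb-bs, Hbb-bt, Hba-a2, Alas2 and Bpgm and lie apart for Hba-a1 and Slc4a1, and WT replicate 3 is the highest WT library in all 7 panels.

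Alas2, the erythroid form of the first and rate-limiting enzyme of heme synthesis, had 754, 1024 and 1304 CPM in WT and 765, 1094 and 845 CPM in CharmeKO. The groups overlapped over most of their range, and the log2 fold change was -0.19 (SE 0.20, 95% interval -0.63 to 0.25, adjusted p = 0.763 in edgeR's quasi-likelihood test). Bpgm had 169, 187 and 317 CPM in WT and 191, 245 and 182 CPM in CharmeKO. Its log2 fold change was -0.12 (SE 0.22, 95% interval -0.60 to 0.35, adjusted p = 0.865 in the same test), the smallest of the 7. The intervals of these enzyme genes reach from a moderate decrease to a small increase, so that changes of that size could not be told from none with 3 libraries a group.

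Slc4a1 was the 1 gene of the 7 that passed the test, against 0.83% of all genes tested in either direction and 0.412% in this direction. With DESeq2, which called 2.5% of all genes tested, it was again the 1 of the 7 that passed. It had 755, 618 and 317 counts in the WT replicates and 159, 231 and 187 counts in the CharmeKO replicates, which is 17.8, 23.5 and 34.1 CPM in WT and 5.55, 9.45 and 6.15 CPM in CharmeKO. All CharmeKO libraries lay below all WT libraries, with CharmeKO replicate 2 the nearest to WT and WT replicate 3, the shallowest library, the farthest. WT libraries averaged 25.1 ± 8.29 CPM and CharmeKO libraries 7.05 ± 2.10 CPM (SD, n = 3 each). Slc4a1 fell by 1.82 on the log2 scale (SE 0.26, 95% interval of the fold change -2.39 to -1.25, adjusted p = 0.00555 in edgeR's quasi-likelihood test), which is 3.53-fold lower in CharmeKO. Without CharmeKO replicate 1 the log2 fold change was -1.67 and the adjusted p 0.0550, which misses the threshold. Over the 13 alternatives run the adjusted p ranged from 7.32e-20 to 0.0550. The lowest came from edgeR with the filter of 1 count in any library, under which 699 genes were called. DESeq2 gave 1.39e-09, and the lowest of the remaining edgeR fits was 0.00161, with a replicate block.

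Markers of other cells were measured beside this gene. The 10 cardiomyocyte markers all had positive log2 fold changes, while 48.8% of all genes tested had negative ones. Of these markers 3 passed the test, beside 0.418% of all genes tested that were called higher. Their summed level was 348 to 446 CPM in WT and 524 to 820 CPM in CharmeKO. All 3 missed the threshold without WT replicate 3, CharmeKO replicate 1 or CharmeKO replicate 2, and 1 of the 3 still passed without WT replicate 1. The 20 leukocyte markers summed to 63.2 to 121 CPM in WT and 86.1 to 117 CPM in CharmeKO and the 14 platelet markers to 61.5 to 93.7 CPM in WT and 77.3 to 98.8 CPM in CharmeKO, with 0 called in either list by edgeR's quasi-likelihood test and 0 and 2 with an unadjusted p under 0.05. By the same test 0 of the 12 fibroblast markers passed, with 5 lower and 1 higher at an unadjusted p under 0.05, and 0 of the 10 endothelial markers passed, with 1 lower and 3 higher, at a summed level of 9303 to 11036 CPM in WT and 9542 to 11854 CPM in CharmeKO. Of all genes tested, 12.8% had an unadjusted p under 0.05 in that test in either direction, and 6.87% were lower in CharmeKO at that level. No marker of these 5 lists was at 0 in all libraries. The part of these cells in the level of Slc4a1 was not tested.

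**Figure D2:**
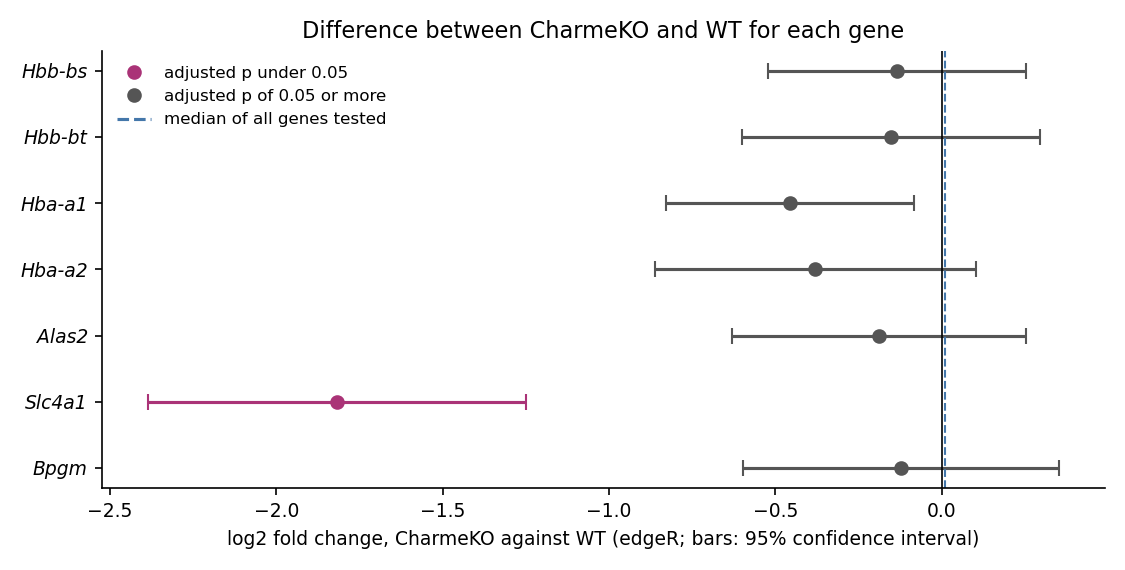
Log2 fold change of CharmeKO against WT for the 7 genes (points) with 95% confidence intervals (bars) from edgeR, beside 0 and the median of all genes tested. Slc4a1, at -1.82, is the only gene of the 7 past the adjusted threshold, and the other 6 lie between -0.46 and -0.12.

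As a group, all 7 genes had log2 fold changes below 0, and 48.8% of all genes tested did. Their median was -0.19, and -0.17 for the 6 genes without Slc4a1, beside 0.0096 for all genes tested. Without WT replicate 3 the median of the 6 was 0.0015, with Hbb-bs, Hba-a1 and Hba-a2 at -0.018, -0.28 and -0.11 and Hbb-bt, Alas2 and Bpgm above 0. Hbb-bs, Hba-a1 and Hba-a2 had a negative log2 fold change in all 13 alternatives run. WT replicate 3 was the highest WT library for all 7 genes, and CharmeKO replicate 2 was the highest CharmeKO library for all 7. The ratio of the highest to the lowest of the 6 libraries was 1.48 to 2.08 for the 6 genes and 6.14 for Slc4a1. The libraries of the groups did not overlap for 2 of the 7, Hba-a1 and Slc4a1, both lower in CharmeKO, beside 18.2% of all genes tested in either direction. Whether the low depth of WT replicate 3 has a part in its levels was not tested.

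Ratios of counts within a library do not depend on the library total. Alpha over beta globin counts were 0.602, 0.722 and 0.751 in WT and 0.619, 0.485 and 0.632 in CharmeKO, with overlapping groups. The difference was -0.26 on the log2 scale (two-sided exact permutation p = 0.3, adjusted p = 0.75 over 6 ratios). Hba-a1 over Hba-a2 was 3.37, 2.60 and 2.49 in WT and 2.63, 2.55 and 2.56 in CharmeKO, so that WT replicate 1 stood alone above 5 libraries that lay close together. Hbb-bs over Hbb-bt was 6.97, 6.64 and 5.84 in WT and 7.15, 6.15 and 6.29 in CharmeKO, a difference of 0.01 on the log2 scale (exact permutation p = 1). Neither ratio of copies differed between the groups beyond the spread of the libraries.

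Per 10000 hemoglobin counts, Alas2 had 290, 338 and 344 counts in WT and 308, 357 and 359 in CharmeKO (log2 difference 0.08, exact permutation p = 0.5, adjusted p = 0.75). Bpgm had 64.9, 62.0 and 83.6 in WT and 76.7, 79.9 and 77.2 in CharmeKO (log2 difference 0.16, exact permutation p = 0.4, adjusted p = 0.75). The groups overlapped for both genes. Slc4a1 had 6.82, 7.78 and 8.997 in WT and 2.24, 3.08 and 2.61 in CharmeKO. The groups lay apart, and their means were 7.86 ± 1.09 (SD, n = 3) and 2.64 ± 0.424 (SD, n = 3), which is 2.98-fold lower in CharmeKO on the scale of log2 means. The exact permutation p was 0.1, the smallest that 3 against 3 libraries can give, and 0.6 after adjustment over the 6 ratios.

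**Figure D3:**
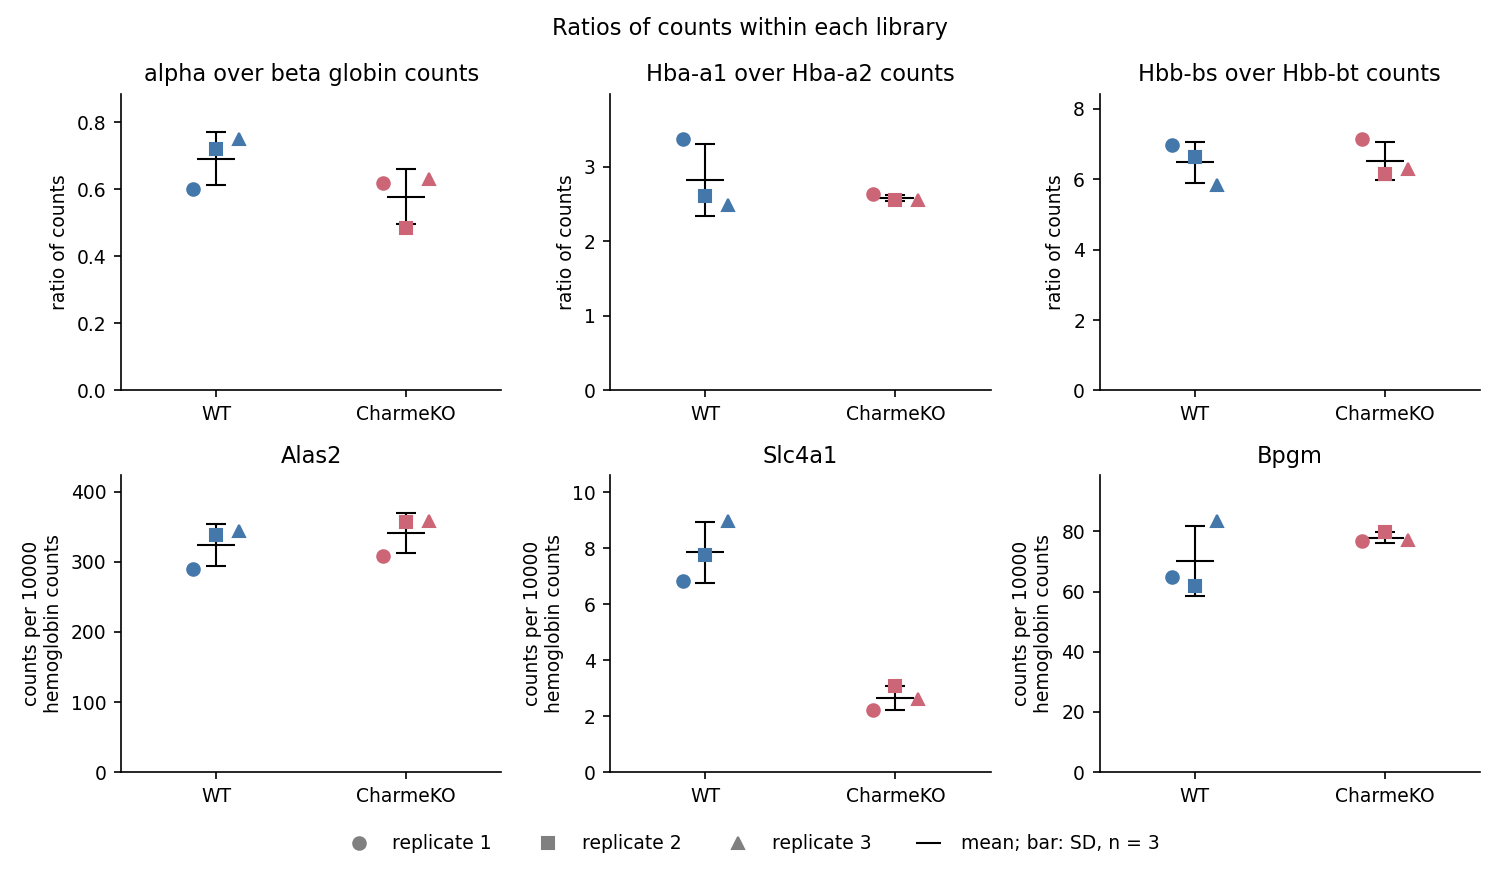
Ratios of counts within each library (vertical axes from 0), with the mean and SD of 3 replicates per group. The upper row shows alpha over beta globin and the ratios of the copies, the lower row shows Alas2, Slc4a1 and Bpgm per 10000 hemoglobin counts, and only the Slc4a1 panel has groups that lie apart, at 6.82 to 8.997 in WT and 2.24 to 3.08 in CharmeKO.

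The wider erythroid programme was read from 9 lists of 130 genes by role, of which 113 were tested. The counts leave out some genes of these lists that are not reported here. Of the genes tested, 68 had log2 fold changes below 0 and 45 above, with a median of -0.05, and 1 passed the test, Cyb5r3, which was higher in CharmeKO, beside 0.418% of all genes tested. At an unadjusted p under 0.05, 16 of the 113 were lower, beside 6.87% of all genes tested, and 2 were higher, and the share in either direction was 12.8% of all genes tested. The lists were chosen with results of these data known, and nothing is read from these shares beyond the counts.

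Of the 8 other globin genes of the list, 5 had 0 counts in every library. Hbb-y, an embryonic beta-like globin, had 5 counts in CharmeKO replicate 3 and 0 elsewhere, and only the theta globin copies Hbq1a and Hbq1b passed the filter. Hbq1a had 1.13 to 3.87 CPM in WT and 1.43 to 3.25 CPM in CharmeKO, and Hbq1b 1.61 to 1.75 CPM in WT and 1.43 to 1.84 CPM in CharmeKO. Both overlapped between the groups, and apart from them the globin RNA of these libraries was almost all of the adult chains.

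Of 16 heme synthesis genes, 5 had negative and 11 positive log2 fold changes, with a median of 0.05 and 0 that passed edgeR's quasi-likelihood test (1 with an unadjusted p under 0.05). Fech, which inserts iron into protoporphyrin in the last step, had 103.9, 125 and 176 CPM in WT and 100.04, 108 and 86.8 CPM in CharmeKO, with a log2 fold change of -0.46 (adjusted p = 0.309 in edgeR's test). Tmem14c, a mitochondrial porphyrin transporter, and Ppox, the enzyme before Fech, had log2 fold changes of -0.23 and 0.03. Of 13 iron supply genes, 0 passed the test and 2 had an unadjusted p under 0.05, with a median of -0.02. The ferritin genes Ftl1 (-0.14) and Fth1 (0.11) and the iron chaperone gene Pcbp1 (-0.08) were the most abundant, and these are used by most cells.

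Of the 17 membrane and skeleton genes tested and reported here, 13 had negative and 4 positive log2 fold changes, with a median of -0.43, which is not that of the whole list, and 0 passed edgeR's test (5 with an unadjusted p under 0.05). The water channel gene Aqp1, which endothelial cells also express, had 2199 to 4657 CPM in WT and 2578 to 4121 CPM in CharmeKO. Epb41, the gene of skeleton protein 4.1, had a log2 fold change of -0.44 (adjusted p = 0.389 in edgeR's test) and Tmcc2 of -0.09.

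Of 11 transcription factor genes tested, 7 had negative and 4 positive log2 fold changes, with a median of -0.06 and 0 that passed edgeR's test (3 with an unadjusted p under 0.05). The most abundant, Nfix (-0.34), Klf3 (0.01) and Ldb1 (-0.0014), are used in many cell types. Gata1 and Klf1, which drive the erythroid programme in nucleated precursors, were under the filter, with 2 to 8 counts and 0 to 8 counts per library, and Gfi1b had 0 to 3 counts. Other factors of the list were well above the limit of detection, with 304 to 1386 counts per library for Tal1, 468 to 2254 for Lmo2 and 114 to 454 for E2f2, which like Gfi1b were named after their values were seen. Whether the transcripts of Tal1, Lmo2 and E2f2 came from erythroid or other cells was not tested.

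Of the 21 reticulocyte maturation genes tested and reported here, 16 had negative and 5 positive log2 fold changes, with a median of -0.13 and 0 that passed edgeR's test (3 with an unadjusted p under 0.05). The most abundant genes of the list, the ubiquitin-conjugating enzyme gene Ube2l6 (-0.14), the mitophagy receptor gene Bnip3l (0.09) and the survival gene Bcl2l1 (-0.37), did not pass.

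**Figure D4:**
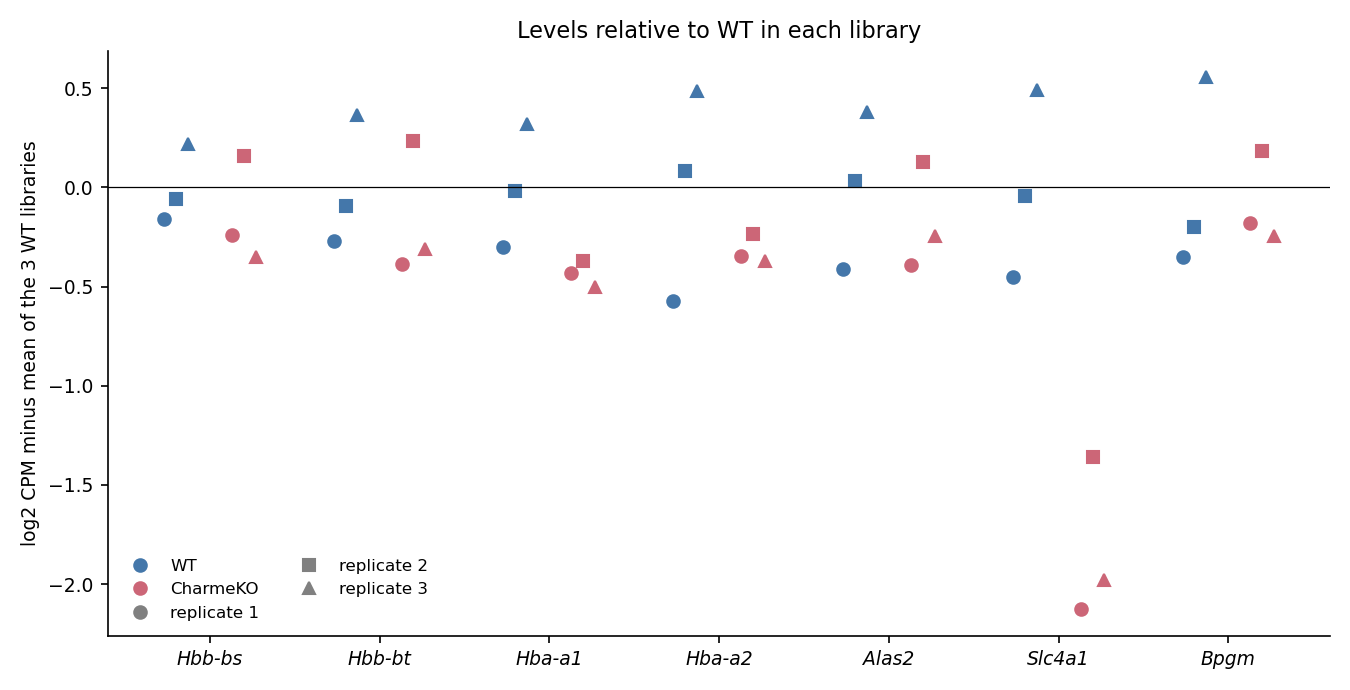
Log2 CPM of the 7 genes in each library relative to the mean of the 3 WT libraries (vertical axis, 0 is the WT mean), with WT in blue and CharmeKO in red. Slc4a1 lies furthest apart between the groups, at 5.55 to 9.45 CPM in CharmeKO against 17.8 to 34.1 CPM in WT, while Alas2, Bpgm and the beta globin genes overlap.

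Of 12 red cell enzyme genes tested, 5 had negative and 7 positive log2 fold changes, with a median of 0.0064. Cyb5r3, which keeps hemoglobin iron reduced in red cells and serves lipid metabolism in other cells, had 232, 314 and 219 CPM in WT and 564, 597 and 587 CPM in CharmeKO. The groups lay apart and Cyb5r3 rose by 1.19 on the log2 scale (SE 0.15, adjusted p = 0.00220 in edgeR's quasi-likelihood test). The adjusted p was 3.61e-13 to 0.0199 over the 13 alternatives, the lowest from edgeR with the filter of 1 count in any library. Of its 10 nearest tested genes on chromosome 15, counted after values were seen, 4 also passed, beside 0.83% of all genes tested. The peroxide-removing enzyme genes Gpx1 (-0.04) and Prdx2 (0.01) did not pass. Of 9 erythropoietin signalling genes tested, 0 passed and 0 had an unadjusted p under 0.05, with a median of -0.08, and the most abundant, Socs3 (-0.11), Pim1 (-0.35) and Sh2b3 (-0.18), are feedback and survival genes of many cytokines. Of 12 heme handling genes, 0 passed and 2 had an unadjusted p under 0.05, with a median of 0.02, and the most abundant were Lrp1 (-0.54, adjusted p = 0.157 in edgeR's test), a receptor for the heme carrier hemopexin, Slc48a1 (-0.09), a heme transporter, and Abcg2 (0.06), a porphyrin exporter.

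**Figure D5:**
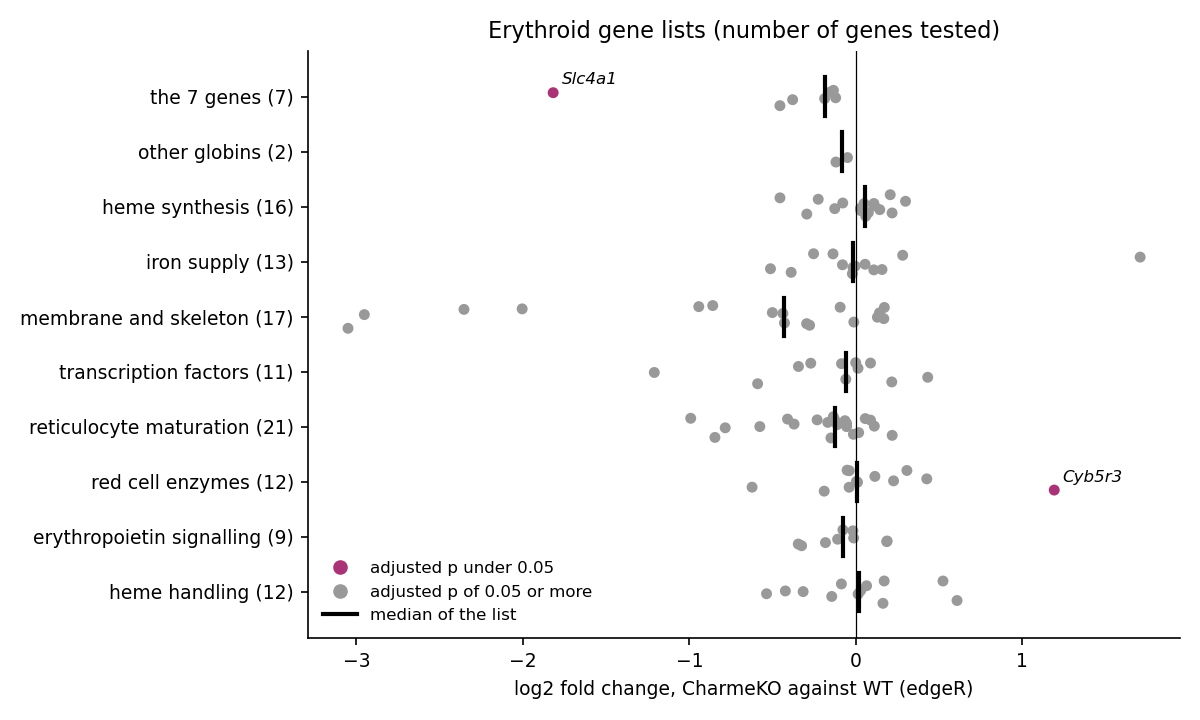
Log2 fold change of CharmeKO against WT (horizontal axis) for the 7 genes and the tested genes of 9 erythroid lists that are reported here, with the median of each list as a black bar and vertical scatter added to separate points. Slc4a1 (-1.82) and Cyb5r3 (1.19) are the 2 genes shown past the adjusted threshold, and the list medians lie between -0.43 and 0.05.

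The genes whose level followed hemoglobin most closely over the 6 libraries were named by Pearson's r of log2(CPM + 1) with log2 of the summed hemoglobin level, among 8907 genes with a mean of at least 10 CPM, for which the median r was -0.03. The 10 closest were Thbs4 (0.96), Setd7 (0.96), Reck (0.95), Wdfy3 (0.95), Cpsf3 (0.95), Mbd5 (0.95), Fech (0.95), Rbm15 (0.95), Cd24a (0.94) and Cnot1 (0.94), and 29 genes, or 0.326%, had an r above 0.9. Fech was the only one of these 10 in an erythroid list. The r was 0.93 for Alas2, 0.87 for Bpgm and 0.80 for Slc4a1, and the r between pairs of the 7 genes ranged from 0.46 to 0.96. By list, the median r of the genes at this level was 0.51 for reticulocyte maturation (16 genes) and 0.20 for membrane and skeleton (7 genes). It was 0.17 for heme handling (7 genes), 0.06 for iron supply (11 genes) and 0.02 for transcription factors (8 genes). For red cell enzymes it was 0.02 (9 genes), for erythropoietin signalling -0.06 (8 genes) and for heme synthesis -0.08 (14 genes). Among markers of other cells at this level, the median r was 0.20 for leukocytes (3 genes) and 0.17 for fibroblasts (12 genes). For endothelial (10 genes), platelet (3 genes), vessel wall (8 genes) and cardiomyocyte (7 genes) markers it was -0.12, -0.28, -0.34 and -0.45. These values are descriptions over 6 libraries that differ in group and depth, and WT replicate 3, the library with the most hemoglobin, was also the shallowest.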

How the data were processed

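Native CFs of 3 WT and 3 CharmeKO samples were sequenced as poly(A) RNA with a directional kit, and groups were taken from the sample labels. The deposited values are raw counts per gene. The authors filtered Illumina reads by quality, aligned them with STAR to mouse GRCm39 as named in the submitters' processing notes, which also list GRCh38, and counted uniquely placed reads per gene on the reverse strand with an Ensembl annotation that included Charme. Reads shared by globin copies therefore add to neither copy. The authors compared the groups with DESeq2. All 6 columns of counts were used.

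The 15789 genes that reached 10 counts in 2 or more libraries were compared by edgeR 4.0.16 (R 4.3.3) with TMM normalization, the quasi-likelihood test and Benjamini-Hochberg adjustment over all genes tested, threshold 0.05. SEs were derived from the test's statistic. The biological coefficient of variation was 20.2%. CPM are TMM-normalized. Nothing in the labels ties libraries to animals, so p-values measure the spread between these samples. No pair of libraries held duplicate values. The summed hemoglobin level and ratios of counts were compared by exact two-sided permutation tests (scipy 1.17.1). On simulated data the edgeR test recovered 148 of 192 genes changed by 1.5 on the log2 scale among 15276, with 15 false calls, and DESeq2 recovered 153 with 38 false calls. With no change simulated among 15318 genes, edgeR made 1 call and DESeq2 made 11. The simulated counts were drawn with edgeR's dispersions of these data, so the false calls cannot rank the tools. Exon lengths and transcripts came from GENCODE M21 and upstream sequences from RefSeq, both on GRCm38 and used for no other coordinate, and Slc4a1 had no upstream entry matched. Proteins were not analysed here.

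The 7 genes and all lists were chosen with earlier results of these data known, and some list genes and markers are not reported here and were left out of the counts over lists. Named genes were the 7, list genes with an adjusted p under 0.05, the 3 most abundant genes of each erythroid list and the 10 genes closest to hemoglobin in level. Gata1 and Klf1 are markers fixed with the lists, and Gfi1b, Tal1, Lmo2 and E2f2 were named after their values were seen. Alternatives were DESeq2 1.42.0, other normalizations and filters, a replicate block and leaving out each library.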

Additional observations from a re-analysis of the deposited data

How the results depend on the processing

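The 131 calls over all genes became 394 with DESeq2, 699 with a filter of 1 count in any library and 302 with a replicate block, and ranged from 61 to 349 when 1 library was left out. Of the 7 genes and the erythroid lists, 2 were called, against 9 with DESeq2, 9 with the filter of 1 count, 4 with the block and 1 to 3 without 1 library. Of the 7 genes, 1 was called under every alternative except without CharmeKO replicate 1 (0 to 1 without 1 library), where the log2 fold change of Slc4a1 was -1.67 (leave-one-out range -2.08 to -1.55). Without WT replicate 3 the log2 fold changes reversed to 0.05 for Hbb-bt (range -0.37 to 0.05), 0.021 for Alas2 (-0.37 to 0.021) and 0.21 for Bpgm (-0.29 to 0.21). The log2 difference in Hba-a1 over Hba-a2 became 0.018 without WT replicate 1 (range -0.20 to 0.018), that in Alas2 per hemoglobin became -0.0037 without WT replicate 1 (-0.0037 to 0.15), and that in Hbb-bs over Hbb-bt changed sign without WT replicate 3 or CharmeKO replicate 1 (-0.063 to 0.065). The cause was not tested. Cyb5r3 was called under all 13 alternatives. Replicate numbers are shared by the groups. Deviations of same-numbered libraries correlated at 0.216, 0.0535 and 0.161, and every library correlated best with its own number. The labels state no pairs, so the main test took none, and these values do not settle whether the numbers mark pairs. The block added Foxo3 and Ube2o to the called genes. With 3 libraries a group, changes of the size seen in hemoglobin could not be told from none, and the counting error of its share was small beside the spread between libraries.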

Other observations

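The list genes that passed with DESeq2 but not with edgeR are given here, a choice made after their values were seen. They were 7 genes, all lower in CharmeKO, and 2.5% of all genes tested passed with DESeq2. It made more false calls than edgeR on simulated data, which were drawn with edgeR's own dispersions and so cannot rank the tools. Ube2o, a ubiquitin enzyme that clears proteins as reticulocytes mature, had 102.9, 146 and 178 CPM in WT and 74.4, 81.4 and 90.9 CPM in CharmeKO (log2 fold change -0.79, adjusted p = 0.0824 in edgeR's quasi-likelihood test). Epb42, the gene of protein 4.2, which binds band 3 in the membrane, had 1.27, 1.83 and 1.61 CPM in WT and 0.279, 0.368 and 0.263 CPM in CharmeKO (-2.35, adjusted p = 0.0899), and Kel, a blood group antigen gene, had 0.306, 0.571 and 1.83 CPM in WT and 0.0699, 0.123 and 0.0987 CPM in CharmeKO (-3.05, adjusted p = 0.218), the latter near the floor of 3 counts. E2f2, a cell cycle factor of terminal erythroid division, had a log2 fold change of -1.21 (adjusted p = 0.140 in edgeR's test). Foxo3, a factor of erythroid maturation, had -0.59 (0.191 in the same test). The heme-responsive repressor gene Bach1 had -0.42 (0.118) and Lrp1, the hemopexin receptor gene, -0.54 (0.157), by the same test. Mean levels over the 6 libraries were 8.25 CPM for E2f2, 119 for Foxo3, 57.6 for Bach1 and 3861 for Lrp1, beside 16.1 for Slc4a1. Which cells held these transcripts was not tested.

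The genes next to the called genes were counted after their values were seen. Of the 10 nearest tested genes, 5 on each side, 4 were called beside Cyb5r3 on chromosome 15, all higher in CharmeKO. They were Serhl, Rrp7a, Poldip3 and Arfgap3. Beside Slc4a1 on chromosome 11, 0 of 10 were called by edgeR. Over all genes tested edgeR called 0.83%, so nothing is read from a count of 0 among 10 genes.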
